A study of Mus musculus with 22 samples.

Results

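CD8+ T cells sorted from the livers of TG Aire-/- mice were compared with those from TG Aire+/- mice, 1 library of each. The members were the 2 libraries, of 22 samples in the series, whose sample titles and genotype labels name these groups and cell type. TG stands in the labels for a transgene, and the series title names it as dnTGFβRII, a dominant-negative type II receptor for transforming growth factor β (TGF-β) that is expressed in T cells (the labels do not name its promoter). Both groups therefore carried the transgene, and they differed in Aire: both alleles were lost in TG Aire-/- and 1 was kept in TG Aire+/-. The mice were C57BL/6 and aged 2 to 4 weeks, and those of these 2 groups were untreated. RNA came from 500000 sorted cells a library. Whether a library pools animals is not given, and neither is which of the Illumina and BGI library protocols was used for which library. Another sorted library, from Aire-/- mice without the transgene, is quoted beside the other 2 for reference. A later readout uses whole livers of Aire+/+ mice, of TG Aire-/- mice and of TG Aire-/- mice depleted of CD8+ T cells. With 1 library a group no difference below has a replicate check or a test, and every difference describes these libraries rather than the genotypes.

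Aire is a transcriptional regulator of medullary epithelial cells in the thymus, where it lets those cells display proteins of peripheral tissues so that self-reactive T cells are removed. TGF-β restrains T cell activation and differentiation, and T cells that express the dominant-negative receptor respond poorly to it. CD8+ T cells recognise peptides on class I molecules, kill through granzymes and perforin and secrete interferon-γ. In the liver they can injure bile ducts and hepatocytes.

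Levels were in RPKM, a read count divided by gene length and by library size. A difference is that of log2(RPKM + 1), TG Aire-/- minus TG Aire+/-, so that 1 stands for close to a doubling of a well expressed gene and less than the true change of a low one. The lineage genes bore out the label. Cd8b1, the β chain of the CD8 coreceptor, stood at 500 RPKM in TG Aire+/- and 416 RPKM in TG Aire-/- (a difference of -0.27). Cd8a, its α chain, stood at 260 and 172 RPKM (-0.59), and Cd3e, a signalling chain of the T cell receptor complex, at 138 and 129 RPKM (-0.10). Cd4, the coreceptor of helper T cells, stood at 2.67 and 2.00 RPKM. Aire was at 0 in both libraries, so it did not check the genotype labels. Tgfbr2, whose extracellular part the transgene shares, stood at 49.4 and 31.3 RPKM, and at 51.0 RPKM in the Aire-/- library without the transgene. The values do not separate transgene from endogenous reads.

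The 2 libraries differed in genes of neutrophils, the phagocytes that fill inflamed tissue. The summed level of the 32 neutrophil genes was 53.8 RPKM in TG Aire+/-, 908 RPKM in TG Aire-/- and 1890 RPKM in Aire-/-. S100a9, an abundant neutrophil protein, stood at 7.45, 290 and 522 RPKM in these libraries, Ngp, a granule protein, at 3.60, 127 and 413 RPKM, and Lcn2, which binds bacterial siderophores, at 1.04, 54.5 and 123 RPKM. Of the 17 neutrophil genes with enough signal, 16 were higher by at least 1 in TG Aire-/-, with a median difference of 4.01. Most of them passed the filter (5 RPKM in at least 1 of the 2 libraries) only through TG Aire-/-. That count and median therefore lean on the filter and are no support by themselves. The median was 2.28 with no filter. The 36 Kupffer cell and macrophage genes summed to 134 RPKM in TG Aire+/- and 213 RPKM in TG Aire-/-, and 29 of them stood higher in TG Aire-/-, 4 stood lower and 3 (Timd4, Spic and Trem2) were at 0 in both. Some of the 29 stood near or below the level of 3 reads. No like share over all unfiltered genes stands beside this count, so it is no result. Only 9 had enough signal, of which 3 were higher by at least 1: Lyz2, a lysozyme of myeloid cells, at 4.84 and 35 RPKM, Apoe, a lipid carrier, at 1.51 and 20.9 RPKM, and Cd14, a sensor of bacterial lipopolysaccharide, at 0.184 and 7.08 RPKM. The last 3 passed the filter only through TG Aire-/-. These 6 macrophage genes were named after their values were seen, and the part of such cells in the differences was not tested. Class II presentation genes, used by antigen-presenting cells, summed to 66.2 and 127 RPKM, with 4 of 7 higher and 1 lower (median 1.27, or 0.84 with each gene set against others of like length). For other cells, dendritic cell genes summed to 77.4 and 35.9 RPKM, but to 22.3 and 26.5 RPKM without Itgax, which activated CD8+ T cells also express (55.1 and 9.41 RPKM). Mast cell and basophil genes summed to 15.1 and 3.37 RPKM, B and plasma cell genes to 21.7 and 14.1 RPKM and erythroid genes to 479 and 539 RPKM. Among the erythroid genes Hbb-bt and Hbb-b2 hold the same values, so that sum counts some reads more than once. Hepatocyte genes summed to 23 and 41.5 RPKM, but to 9.31 and 7.59 RPKM without Hp and Ass1. The other lists were liver endothelial genes at 22.1 and 26.4 RPKM, stellate cell genes at 5.70 and 7.52 RPKM, cholangiocyte genes at 2.99 and 4.35 RPKM and platelet genes at 4.49 and 5.66 RPKM. The monocyte list, which summed to 1628 and 922 RPKM, shares genes such as Nr4a1 with activated T cells.

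**Figure D1:**
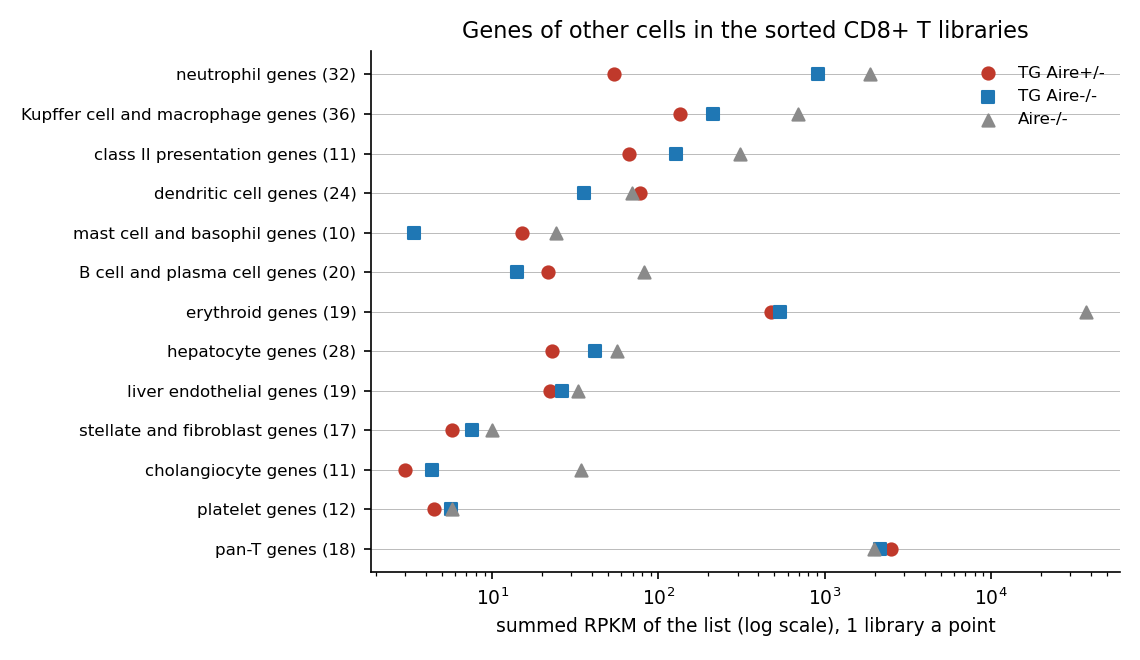
Summed RPKM on a log scale of lists of genes of other cells in the 3 sorted libraries, 1 point a library, with the number of genes in brackets and the pan-T genes for comparison. Neutrophil genes go from 53.8 RPKM in TG Aire+/- to 908 RPKM in TG Aire-/-, while erythroid genes stand apart in the Aire-/- library (37308 RPKM).

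Genes of the 6 myeloid lists were set aside, except those that T cells also express. Of 24786 genes, 7701 reached 5 RPKM in at least 1 of the 2 libraries, and 7666 remained after 35 were set aside. Of these, 552 (7.2%) were higher by at least 1 in TG Aire-/- and 632 (8.24%) were lower by at least 1. With no gene set aside the counts were 577 (7.49%) and 635 (8.25%) of 7701. Large differences lay mostly on the lower side, with 116 genes lower and 44 higher by at least 2. The median difference was 0.09. The higher genes made up 46.6% of those past 1, but 33.1% (448 higher and 906 lower) with each library scaled to the same sum, and 36.0% (421 higher and 750 lower) with the median of well expressed genes brought to 0. The first of these scalings moved the median gene to -0.05, a shift of more than 0.1. These 7.2% and 8.24% are the backgrounds for the counts of list members below. In many of these lists some members passed the filter only through the library where they are high. Their counts and medians therefore lean on the filter.

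**Figure D2:**
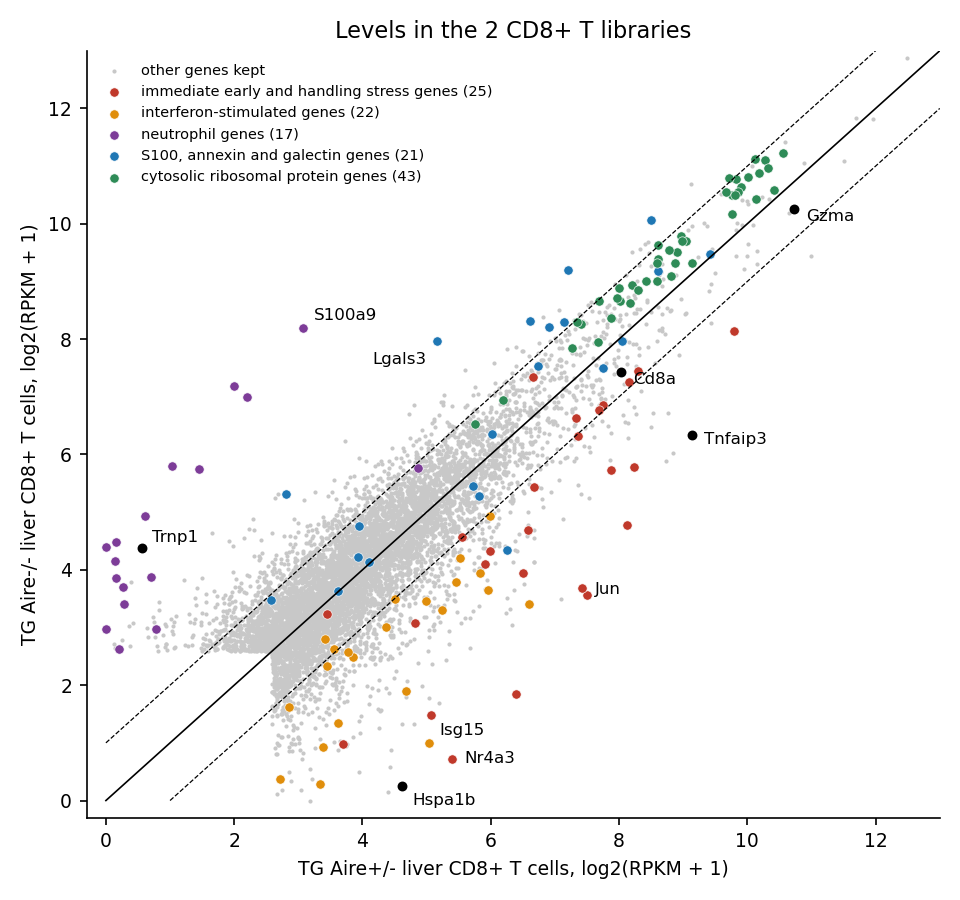
Levels of the 7666 genes kept, and of the 17 neutrophil genes set aside, in TG Aire+/- (horizontal) and TG Aire-/- (vertical) as log2(RPKM + 1), with 5 lists coloured and 5 other named genes in black. The solid line marks equal levels and the dashed lines a difference of 1. Immediate early and interferon-stimulated genes mostly lie below the equal line, neutrophil genes far above it and ribosomal protein genes between the equal line and the upper dashed line.

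The difference went with transcript length. Across 7569 genes with an annotated length, the longest transcript of a gene and its difference had a Spearman rho of -0.41 (Pearson r -0.30). This correlation is across genes of the same 2 libraries, and genes are not independent replicates. Genes were split into 10 equal bins by length. In the bin with the shortest transcripts (43 to 1204 bases) the median difference was 0.60, with 152 genes higher by at least 1 and 37 lower. In the bin with the longest (6328 to 123179 bases) it was -0.46, with 4 higher and 150 lower. The median over the bins of TG Aire-/- minus Aire-/-, which shares the TG Aire-/- library, ran from 0.70 to -0.51, and that of TG Aire+/- minus Aire-/- from 0.19 to -0.03. The part of length in the results below was not tested, but each list's median was also computed with the median of genes of like length subtracted, and it is printed as the length-centred median where it differs by more than 1.5 times.

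**Figure D3:**
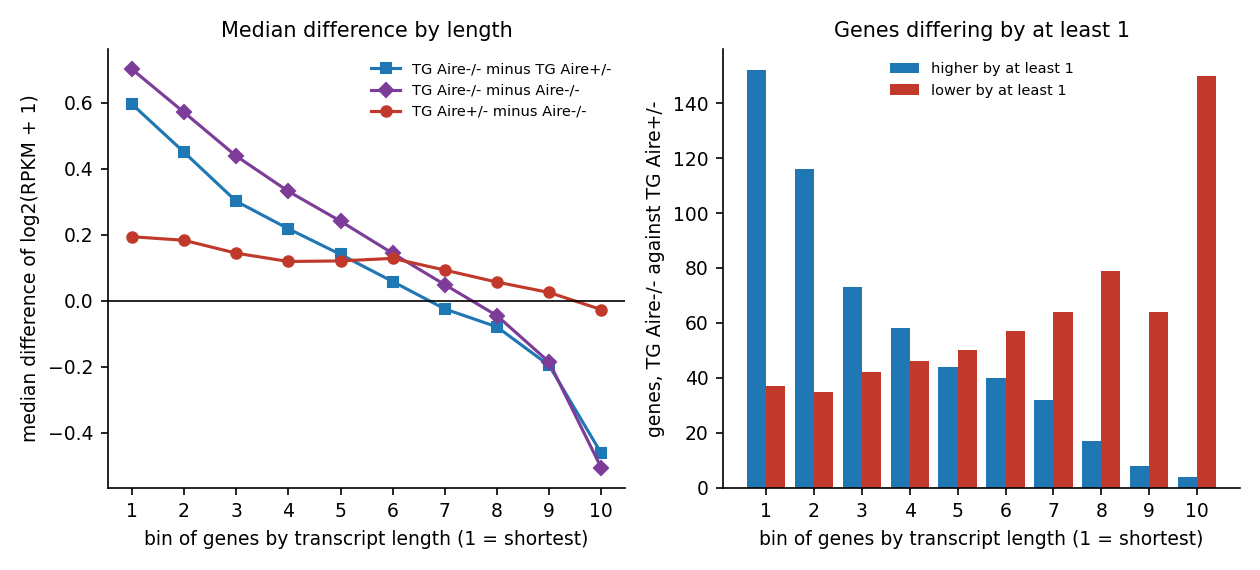
Left, the median difference of log2(RPKM + 1) in 10 bins of genes ordered by transcript length, for the 3 pairs of CD8+ T libraries. Right, the number of genes higher or lower by at least 1 in TG Aire-/- than in TG Aire+/- in each bin, which goes from 152 against 37 in the shortest to 4 against 150 in the longest.

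Immediate early genes had the lowest values of TG Aire-/- against TG Aire+/-. These genes are transcribed within minutes of T cell receptor signals or of mechanical and enzymatic handling of tissue, and the handling time of each sort is not given. Nr4a3 (chr4:48045153-48086447, mm10), a nuclear receptor induced by antigen receptor signals, had the largest difference of all genes kept. Its level was 41.0 RPKM in TG Aire+/-, 0.657 RPKM in TG Aire-/- and 23.1 RPKM in Aire-/-, a difference of -4.66. Fosl2 (chr5:32135801-32157842), an AP-1 subunit, stood at 83.0, 2.59 and 37.5 RPKM (-4.55). In both genes the TG Aire-/- library was the low one of 3.

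Of the 25 immediate early and handling stress genes kept (of 27), 17 were lower by at least 1 in TG Aire-/-, none was higher, and the median difference was -1.73. The list summed to 4148, 1486 and 3949 RPKM in TG Aire+/-, TG Aire-/- and Aire-/-. Other AP-1 subunits were among them: Jun at 171, 11.9 and 144 RPKM (-3.74), Fosb at 181, 10.8 and 76.9 RPKM (-3.95) and Junb at 883, 280 and 984 RPKM (-1.65). Jun overlaps its antisense transcript Junos, and since strand was not stated, reads in bases that both cover cannot be told apart. Klf4, a factor that restrains T cell proliferation, stood at 32.5, 1.80 and 17.1 RPKM (-3.58). Nr4a1, which reports recent antigen receptor signals, stood at 277, 26.4 and 127 RPKM (-3.34). Ppp1r15a, which directs a phosphatase to a translation initiation factor under stress, stood at 299, 53.8 and 252 RPKM (-2.45). The abundant members Zfp36 and Btg1, an RNA-decay factor and an antiproliferative gene, differed by less, at -0.85 and -0.89. Dusp10, a phosphatase of stress-activated kinases outside the list, stood at 136, 10.3 and 51.9 RPKM (-3.60).

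Chaperones and NF-κB targets were lower too. Of the 12 heat shock genes kept (of 13), 6 were lower by at least 1, none was higher and the median was -0.97. The inducible chaperones Hspa1b and Hspa1a had differences of -4.36 and -4.25. Hspa1b stood at 23.5 RPKM in TG Aire+/-, 0.193 RPKM in TG Aire-/- and 25.3 RPKM in Aire-/-. These 2 genes are near-identical copies, so their separate values are uncertain. Hsph1, a cofactor of such chaperones, stood at 31.8, 6.18 and 54.3 RPKM (-2.19). Of the 13 NF-κB target genes kept (of 15), 9 were lower and none was higher, with a median of -1.30. Tnfaip3, the feedback inhibitor A20, stood at 562 RPKM in TG Aire+/-, 79.4 RPKM in TG Aire-/- and 552 RPKM in Aire-/- (-2.81). Rel, an NF-κB subunit needed for T cell activation, stood at 24.7, 2.47 and 32.6 RPKM (-2.89). Nfkbiz, a nuclear modulator of NF-κB, and Icam1, an adhesion molecule, differed by -1.94 and -1.88. The TG Aire-/- library was the lowest of the 3 for each of the genes named in these lists.

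Endoplasmic reticulum chaperones and amino acid stress genes followed. Of the 15 kept (of 20), 9 were lower by at least 1 and 1 was higher, with a median of -1.07. Hspa5, the main chaperone of the endoplasmic reticulum, stood at 433, 104 and 387 RPKM (-2.04) in TG Aire+/-, TG Aire-/- and Aire-/-, and Dnajb9, its co-chaperone, at 81.8, 19.3 and 104 RPKM (-2.03). Ddit3, a stress-induced factor, and Slc3a2, the heavy chain of an amino acid transporter, both differed by -1.81.

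Interferon-stimulated genes were lower across most of the list. Of 22 kept (of 33), 20 were lower by at least 1 in TG Aire-/- and none was higher, with a median of -1.60. Some of the 22, among them Isg15, Oas1a and Rtp4, passed the filter only through TG Aire+/-. That count and median therefore lean on the filter, and the median was -1.36 with no filter. The list summed to 654 RPKM in TG Aire+/-, 172 RPKM in TG Aire-/- and 515 RPKM in Aire-/-. Isg15, a ubiquitin-like protein, stood at 31.7, 0.990 and 13 RPKM (-4.04). Ifi27l2a, an interferon-induced membrane protein, stood at 95.3, 9.60 and 35.4 RPKM (-3.18). Oas1a, which makes the signal that activates an antiviral RNase, stood at 9.09, 0.213 and 5.18 RPKM (-3.06), and Rtp4, an interferon-induced antiviral factor, at 24.6, 2.72 and 21.0 RPKM (-2.78). Again the TG Aire-/- library was the lowest of the 3.

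Genes induced by interferon-γ differed in the same direction but less uniformly. Of 18 interferon-γ GTPase genes kept (of 20, with their regulators), 8 were lower and none was higher, with a median of -0.94. Irf1, an early interferon-γ target, stood at 169, 38.9 and 121 RPKM (-2.09), and Gbp10, a guanylate-binding protein, at 18.2, 3.26 and 17.6 RPKM (-2.17). The immunity-related GTPases Tgtp1 and Tgtp2, close copies whose separate values are uncertain, differed by -1.87 and -1.79. Class I presentation genes mostly stayed within 1: 2 of 19 were lower, none was higher and the median was -0.12 (length-centred -0.30). Those 2 were Calr, a chaperone of class I assembly, at 360, 87.9 and 279 RPKM (-2.02), and H2-T23, a non-classical class I molecule, at -1.08.

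Promoter sequences of 4 members of the interferon and NF-κB lists are shown, 3 with an interferon-stimulated response element, to which interferon-activated factors are known to bind, and 1 with an NF-κB site. Each is the 250 bases before a RefSeq start of the gene, 5′ to 3′ on the gene's strand, from the RefSeq table for GRCm38.p6. Capitals mark matches to the interferon-stimulated response element searched as GAAANNGAA on both strands, with overlapping matches joined. For Tnfaip3, named above among the NF-κB targets, they mark the NF-κB site searched as GGANTTTCC on both strands. All 4 were chosen after the values were seen, as list members with a match and the lowest differences. That they hold a match is therefore no result, and Ifit1 is named for this choice only. The window of Isg15 lies at chr4:156200819-156201068 (minus strand) and that of Oas1a at chr5:120907526-120907775 (minus). Ifit1, an antiviral RNA-binding protein of the interferon list, has its window at chr19:34640639-34640888 (plus) and Tnfaip3 at chr10:19015411-19015660 (minus).
Isg15: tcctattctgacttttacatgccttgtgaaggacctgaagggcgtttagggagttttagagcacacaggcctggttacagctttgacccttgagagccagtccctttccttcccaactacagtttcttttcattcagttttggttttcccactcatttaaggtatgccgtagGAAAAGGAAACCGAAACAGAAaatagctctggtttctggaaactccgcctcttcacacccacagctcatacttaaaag
Oas1a: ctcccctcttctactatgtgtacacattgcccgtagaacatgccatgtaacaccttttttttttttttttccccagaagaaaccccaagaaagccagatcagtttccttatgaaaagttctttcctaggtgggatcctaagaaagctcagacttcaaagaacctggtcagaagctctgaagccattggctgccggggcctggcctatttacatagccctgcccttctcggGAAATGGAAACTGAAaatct
Ifit1: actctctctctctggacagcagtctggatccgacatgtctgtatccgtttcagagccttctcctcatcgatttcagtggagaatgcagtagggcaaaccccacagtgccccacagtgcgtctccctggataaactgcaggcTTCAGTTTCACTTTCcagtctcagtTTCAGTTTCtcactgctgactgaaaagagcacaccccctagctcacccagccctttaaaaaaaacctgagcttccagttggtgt
Tnfaip3: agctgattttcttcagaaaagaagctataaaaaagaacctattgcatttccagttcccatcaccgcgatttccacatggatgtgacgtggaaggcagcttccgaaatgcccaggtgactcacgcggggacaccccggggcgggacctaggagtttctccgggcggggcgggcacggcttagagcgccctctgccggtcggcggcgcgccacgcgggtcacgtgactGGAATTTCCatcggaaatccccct
Isg15 and Ifit1 held 3 such matches each and Oas1a held 2. The NF-κB site of Tnfaip3 began 24 bases before the RefSeq start. In GENCODE the gene spans chr10:19000910-19015657, so most of the Tnfaip3 window lies inside its gene body there. Ifit1 stood at 9.42 RPKM in TG Aire+/- and 0.893 RPKM in TG Aire-/- (-2.46). The response element occurred in 9 of the 14 interferon-stimulated genes with a promoter in the table (64.3%) and in 10 of 13 interferon-γ GTPase genes (76.9%). It occurred in 2211 of all 27025 promoters (8.18%), in 51 of 468 lower genes (10.9%) and in 33 of 418 higher genes (7.89%). The NF-κB site occurred in 4 of 10 NF-κB target genes and in 337 of all promoters (1.25%). A match describes the letters and shows no binding.

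Genes of effector differentiation split. Of the 16 in the list, all kept, 9 were lower by at least 1 in TG Aire-/- and 1 was higher, with a median of -1.58. S1pr5, an egress receptor of short-lived effector cells, stood at 35.6 RPKM in TG Aire+/-, 2.23 RPKM in TG Aire-/- and 1.32 RPKM in Aire-/- (-3.50). Cx3cr1, the fractalkine receptor of cytotoxic effector cells, stood at 50.3, 5.23 and 3.45 RPKM (-3.04). Zeb2, a repressor that drives terminal effector differentiation, stood at 14.5, 1.26 and 2.10 RPKM (-2.78), and Klrg1, a receptor of terminal effectors, at 102, 22.5 and 3.18 RPKM (-2.13). S1pr5, Cx3cr1 and Zeb2 were high in the TG Aire+/- library and low in both others, and for Klrg1 the TG Aire-/- library lay between the other 2. The gene bodies of Cx3cr1 and Zeb2 overlap those of other genes, and whether exons, and so reads, are shared was not examined.

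Most genes of the killing machinery stayed within 1. Of 15 granzyme and killing genes kept (of 20), 2 were lower by at least 1 and none was higher, with a median of -0.29 (length-centred -0.63). Gzma stood at 1688, 1222 and 575 RPKM (-0.47) in TG Aire+/-, TG Aire-/- and Aire-/-, Gzmb at 694, 493 and 412 RPKM (-0.49) and Nkg7, a granule membrane protein, at 697, 755 and 457 RPKM (0.12). The 2 lower genes were Gzmm, a granzyme, at 39.2, 12.2 and 10.2 RPKM (-1.61) and Prf1, the pore protein perforin, at 44.4, 18.8 and 22.9 RPKM (-1.19). Among 9 cytokine genes kept (of 21), 2 were lower and 1 was higher, with a median of -0.14 (length-centred -0.27). Ifng stood at 187, 64.7 and 71.3 RPKM (-1.52) and Tnf at 17.4, 6.39 and 27.5 RPKM (-1.32). Il10, an inhibitory cytokine, stood at 0.285, 7.13 and 0.909 RPKM (2.66). Among 7 chemokine genes kept (of 20), the median was -0.49 (length-centred -1.0). Cxcl10, an interferon-induced chemokine, stood at 23.5, 1.5 and 13.7 RPKM (-3.29), and Cxcl2, which attracts neutrophils, at 4.30, 17.5 and 42.3 RPKM (1.80). Cxcl2 passed the filter only through TG Aire-/- and, like the neutrophil sum, was highest in Aire-/-. The part of other cells in its difference was not tested.

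Naive and memory genes were lower in TG Aire-/- without exception among the 20 kept (of 21). All 20 were below 0, where 44.9% of all genes kept were, and they stayed below 0 under each alternative that kept them. Of the 20, 9 were lower by at least 1, and the median was -0.89. Ccr7, which guides T cells into lymph nodes, stood at 426, 58.4 and 271 RPKM (-2.85). Tcf7, a factor of naive and stem-like memory cells, stood at 209, 117 and 269 RPKM (-0.83), and Klf2, which maintains quiescence and egress, at 307, 184 and 203 RPKM (-0.74). Of 22 homing receptor genes kept (of 26), 11 were lower and none was higher, with a median of -0.95. One was Cxcr5, the receptor for B cell follicles, at 9.11, 1.09 and 4.71 RPKM (-2.27).

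Residency genes pointed the same way. Of 11 kept (of 15 in the table), 5 were lower and none was higher, with a median of -0.99. Itga1, an integrin of resident cells, stood at 7.02, 0.989 and 6.80 RPKM (-2.01), and P2rx7, a receptor for extracellular ATP, at 9.73, 1.91 and 7.46 RPKM (-1.88). Cd69, an activation and retention marker, stood at 282, 123 and 171 RPKM (-1.19). Art2b, an enzyme that modifies surface proteins of T cells including P2rx7, was among the 10 lowest genes, at 20.6, 0.490 and 17.9 RPKM (-3.86). Of 15 NK receptor genes kept (of 25), 8 were lower and none was higher, with a median of -1.07 (length-centred -1.71). Some of the 8, among them Klra1 and Klra6, passed the filter only through TG Aire+/-, so that count leans on the filter. With no filter the median was also -1.07. Klre1, a lectin-like receptor, stood at 79.8, 7.25 and 64.5 RPKM (-3.29). Klra1 and Klra6 differed by -2.85 and -2.72, but members of that family share sequence and are uncertain as single genes.

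Inhibitory receptors went the other way. Of 13 inhibitory receptor and exhaustion genes kept (of 16), 6 were higher by at least 1 in TG Aire-/- and 1 was lower, with a median of 0.82. Lag3, which binds class II molecules, stood at 7.77, 26.1 and 19.0 RPKM (1.63) in TG Aire+/-, TG Aire-/- and Aire-/-. Pdcd1, which encodes the inhibitory receptor PD-1, stood at 5.18, 15.2 and 20.9 RPKM (1.39), and Tox, the factor of exhausted cells, at 8.79, 24.3 and 30.1 RPKM (1.37). For these 3 the TG Aire+/- library was the low one, and TG Aire-/- and Aire-/- lay close together. Tigit stood at 47.2, 113 and 64.7 RPKM (1.24) and Ctla4 at 41.4, 86.1 and 40.8 RPKM (1.04), both highest in TG Aire-/-. Cd160 was lower, at 41.4, 18.2 and 39.7 RPKM (-1.14), and Cd96 differed by -0.92. Of the CD4 and regulatory T cell genes only 5 of 13 were kept, with Tnfrsf4 (OX40, a costimulatory receptor) at 2.04, 7.44 and 2.61 RPKM (1.48), 2 higher in all and a median of 0.93 (length-centred 0.42). With a minimum of 1 RPKM that list's median was -0.20.

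**Figure D4:**
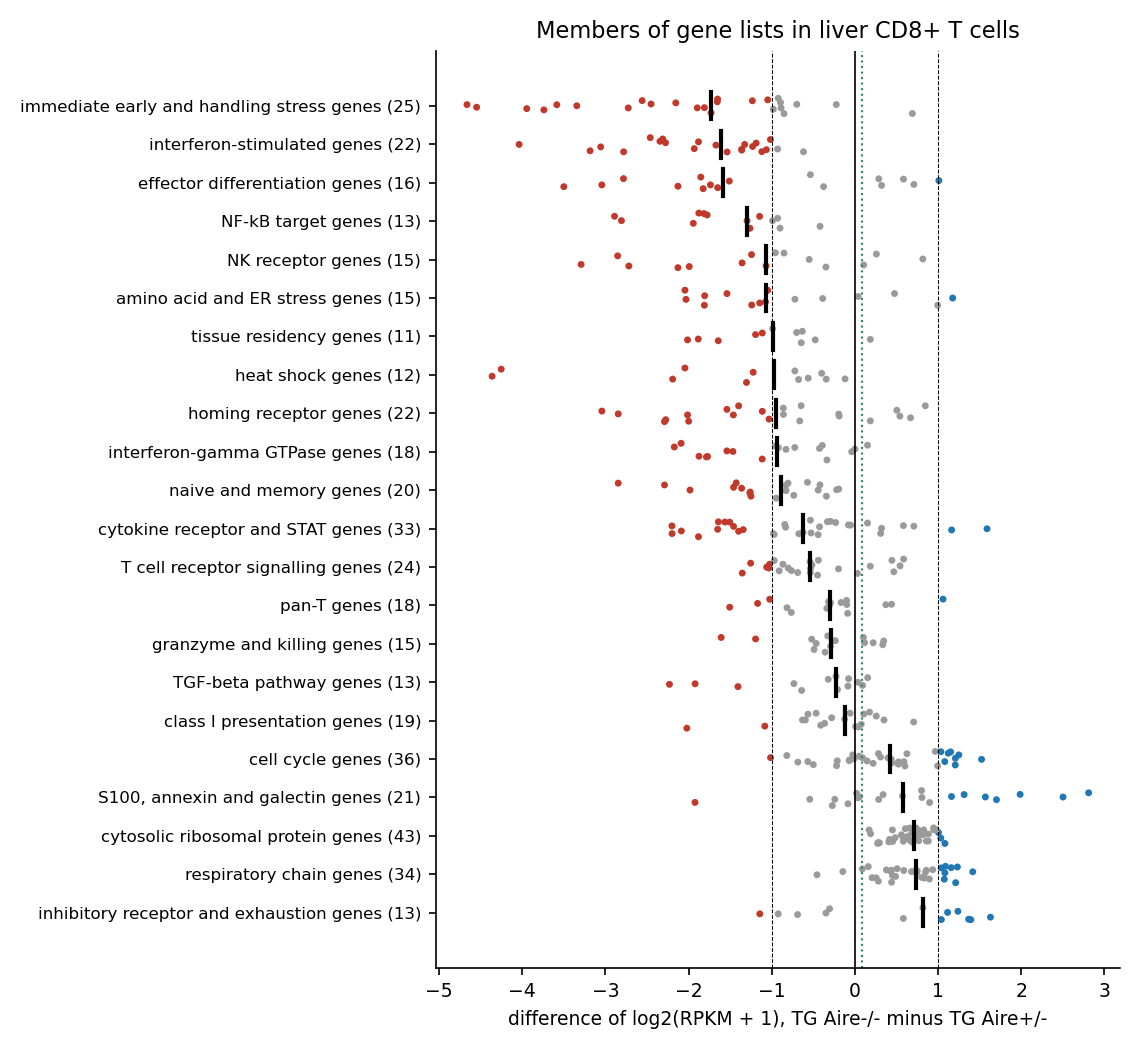
Difference of log2(RPKM + 1), TG Aire-/- minus TG Aire+/-, of each kept member of 22 gene lists, with the number of members in brackets. Blue points are higher and red points lower by at least 1 (dashed lines), black bars are list medians, and the green dotted line is the median of all genes kept (0.09). Medians run from -1.73 for immediate early genes to 0.82 for inhibitory receptors.

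**Figure D5:**
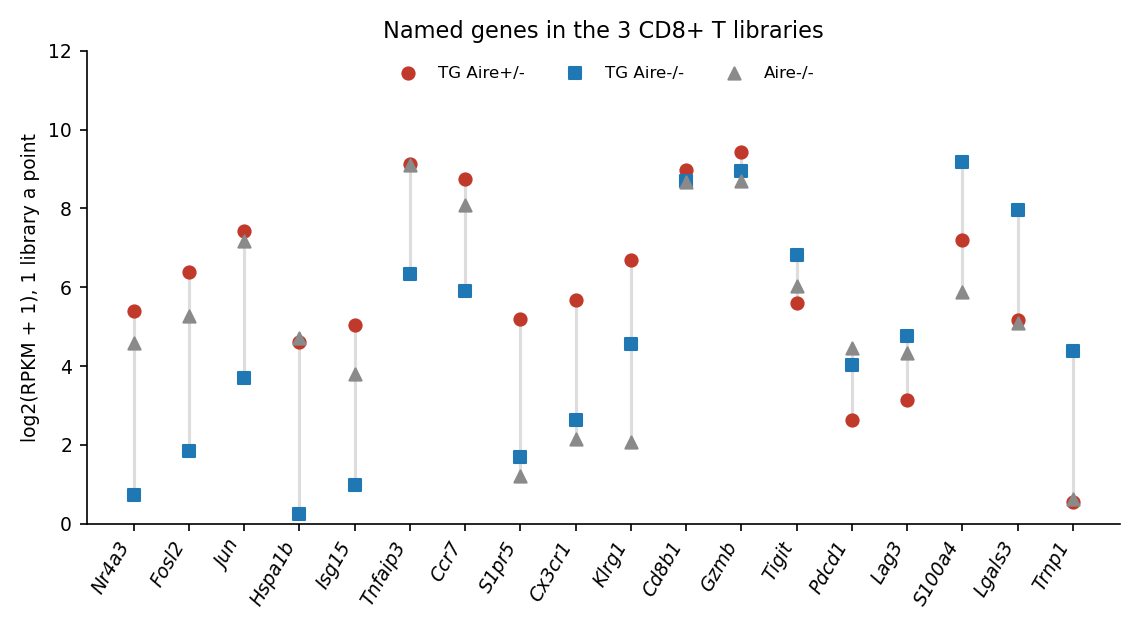
Levels of 18 named genes as log2(RPKM + 1) in the 3 CD8+ T libraries, 1 library a point. For the genes from Nr4a3 to Ccr7 the TG Aire-/- library is the lowest, for S1pr5 and Cx3cr1 the TG Aire+/- library stands alone at the top, for Klrg1 the libraries are spread evenly, and for Lgals3 and Trnp1 the TG Aire-/- library does.

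Receptors and signalling genes were mostly lower or within 1. Of 33 cytokine receptor and STAT genes kept (of 35), 11 were lower and 2 were higher, with a median of -0.62. Il27ra, Il4ra and Il21r, receptor chains for interleukins 27, 4 and 21, differed by -2.20, -2.20 and -2.09. Il21r stood at 84.4, 19.1 and 62.6 RPKM. Of 24 T cell receptor signalling genes, 5 were lower and none was higher, with a median of -0.54. They included Malt1 (-1.25), a scaffold and protease that links the receptor to NF-κB, and Ptpn6, an inhibitory phosphatase, at 58.1, 22.1 and 70.6 RPKM (-1.35). Of 18 pan-T genes, 3 were lower and 1 was higher, with a median of -0.30. Cd28, the main costimulatory receptor, stood at 133, 46.1 and 55.5 RPKM (-1.51), and Cd5, a negative regulator of receptor signals, at 79.3, 34.7 and 47.9 RPKM (-1.17). Of 17 activation and costimulation genes kept (of 18), 5 were lower and 1 was higher, with a median of -0.51. None of the 8 CD8 lineage genes was past 1 either way, and their median was -0.38 (length-centred -0.69).

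Of 13 TGF-β pathway genes kept (of 21), 3 were lower and none was higher, with a median of -0.23 (length-centred -0.08). Tgif1 and Skil, nuclear repressors of the pathway, stood at 58.9, 11.8 and 45.0 RPKM (-2.23) and at 20.6, 4.71 and 18.0 RPKM (-1.92) in TG Aire+/-, TG Aire-/- and Aire-/-. Smad7, its inhibitory SMAD, stood at 20.6, 7.14 and 25.5 RPKM (-1.41). Skil and Smad7 are also feedback targets of the pathway.

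Among genes higher in TG Aire-/- were members of the list of S100, annexin and galectin genes. This list also holds genes outside these families, among them Vim, Lmna, Tagln2, Emp1, Emp3 and Ahnak. Of 21 kept (of 22), 7 were higher by at least 1 and 1 was lower, and the list summed to 2868 RPKM in TG Aire+/-, 5040 RPKM in TG Aire-/- and 1653 RPKM in Aire-/-. Vim, 1 of the 7 and named after its value was seen, stood at 361, 1073 and 259 RPKM (1.57), so the sums are not those of the 3 families alone. The list's median was 0.57 (length-centred 0.13). Lgals3, a galectin that binds surface glycans, stood at 34.7, 249 and 33.4 RPKM (2.81). S100a4, a calcium-binding protein of migrating effector cells, stood at 146, 583 and 58.3 RPKM (1.99). Anxa1, an anti-inflammatory annexin, stood at 6.00, 38.6 and 35 RPKM (2.5), and Ahnak, a very long scaffold transcript, at 75.6, 19.2 and 40.3 RPKM (-1.92). Myeloid cells express Lgals3, S100a4 and Anxa1 too. The neutrophil sum in the 3 libraries was 53.8, 908 and 1890 RPKM, and its part in these differences was not tested.

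Trnp1, a nuclear protein known from neural progenitors, had the highest difference of all genes kept. It stood at 0.470 RPKM in TG Aire+/-, 19.7 RPKM in TG Aire-/- and 0.545 RPKM in Aire-/- (3.82; chr4:133491100-133498550). Hp, a haemoglobin-binding plasma protein that hepatocytes and neutrophils make, stood at 0.305, 12.8 and 25.5 RPKM (3.40), and Gm156 at 2.15, 24.0 and 13.2 RPKM (2.99). Hp was highest in Aire-/-, the library with the highest neutrophil sum, and Gm156 in TG Aire-/-. The part of other cells in their differences was not tested. Gm156 lies at chr6:129766568-129784270, between Klre1 and Klra6 of the NK receptor list, and is not in that list. Others among the 10 highest were Hist1h4i, a histone H4 gene with near-identical copies, at 5.42, 38.7 and 2.97 RPKM (2.63), Ager, a receptor that binds S100 proteins, at 0.771, 9.88 and 1.63 RPKM (2.62), and Gnrh1, a neuropeptide gene, at 1.33, 13.2 and 2.54 RPKM (2.60). Gm20219 (2.66) and 1600020E01Rik (2.62), the latter overlapping Pcbp1, completed them with Il10 and Lgals3.

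Cell cycle genes differed in both directions. Of 36, 8 were higher by at least 1 and 1 was lower, 25 were above 0 and 11 below, and the median was 0.42. Over all genes kept, 55.1% were above 0. Ccnb1, the cyclin of entry into mitosis, stood at 7.90, 24.6 and 2.99 RPKM (1.52), and its kinase Cdk1 at 10.5, 25.6 and 4.50 RPKM (1.21). Birc5, a mitotic survival factor, and Tk1, which makes nucleotides for replication, differed by 1.25 and 1.21. In all 4 the order was TG Aire-/- above TG Aire+/- above Aire-/-. Some replication genes went the other way, among them, named after their values were seen, Mcm2, a subunit of the replicative helicase and the one lower by at least 1, at 37.7, 18.2 and 23.9 RPKM (-1.01), and Pcna, the clamp of DNA polymerases, at 218, 123 and 130 RPKM (-0.82).

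Ribosomal protein and respiratory chain genes mostly lay between 0 and 1. All 43 cytosolic ribosomal protein genes were above 0, where 55.1% of all genes kept were, with a median of 0.72 and sums of 25619, 41243 and 27240 RPKM, but only 3 were higher by at least 1, a share near the 7.2% of all genes, among them Rpsa (1.08) and Rpl8 (1.0). None of the 43 was past 1 with the same sum or with the median at 0. The length-centred median was 0.22, with 36 above 0 and 7 below. Of 34 respiratory chain genes, 8 were higher and none was lower, with a median of 0.73 (length-centred 0.25). Ndufa5, a subunit of complex I, stood at 9.56, 27.2 and 9.42 RPKM (1.42), and Uqcrq, a subunit of complex III, at 18.9, 45.6 and 14.8 RPKM (1.23). Of 16 glycolysis genes kept (of 21), 2 were higher and none was lower, the enzymes Eno1 and Gapdh (1.02 each), and the median of 0.01 took either sign over the alternatives. Among 15 cholesterol and fatty acid synthesis genes kept (of 22), 3 were lower and 1 was higher, with a median of -0.37. Those were Insig1, the sterol sensor, at 38.7, 11.3 and 18.0 RPKM (-1.68), the sterol enzymes Cyp51 (-1.55) and Idi1 (-1.46), and Scd2, a fatty acid desaturase, at 11.9, 31.5 and 12 RPKM (1.33). Of 21 survival and apoptosis genes kept (of 24), 4 were lower and 1 was higher, with a median of -0.03 (length-centred -0.42). The one higher was Bbc3, a p53-induced death gene, at 9.85, 24.9 and 13.3 RPKM (1.25).

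The libraries also differed in sex-linked genes. Xist, expressed from the inactive X chromosome, stood at 28.5 RPKM in TG Aire+/-, 11.6 RPKM in TG Aire-/- and 12.2 RPKM in Aire-/-, and the Y-linked Eif2s3y at 1.13, 8.22 and 17.4 RPKM. Both were above 0 in every library. Sex and genotype cannot be told apart with 1 library a group. Inferred depth was similar, at about 21800000 reads in TG Aire+/- and 21000000 in TG Aire-/-, at which a gene of 2000 bases with 3 reads would read 0.0688 and 0.0714 RPKM. Such floors cover counting error only.

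The whole livers gave a further readout from other samples. The livers of the second batch were 2 Aire+/+, 2 TG Aire-/- and 2 TG Aire-/- depleted of CD8+ T cells, in a table normalised separately, so levels are not set against the sorted cells. In bulk tissue fewer cells of a type and less RNA per cell cannot be told apart. Both TG Aire-/- livers were above both depleted livers for 5006 of 7467 kept genes that reached 1 RPKM in a liver (67.0%). The share was 316 of 516 (61.2%) for the genes higher in sorted TG Aire-/- cells and 368 of 580 (63.4%) for those lower, so neither set stood above the background. Both TG Aire-/- livers were below both depleted ones for 357 of all (4.78%), 33 of the higher (6.4%) and 27 of the lower genes (4.66%).

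Single genes in those livers are given as levels only. Both TG Aire-/- livers were above all 4 others for 4409 of the 7467 genes (59.0%), all at 1 RPKM or more in a liver. Of the 10 genes furthest above 0 in the sorted cells, 6 reached that level, and 4 of these had this order, a count that is no result beside that background. Cd8b1 stood at 0.130 and 0.0699 RPKM in the Aire+/+ livers, 6.27 and 3.0 RPKM in the TG Aire-/- livers and 0 and 0.0342 RPKM in the depleted ones. Trnp1 stood at 0.0281 and 0 RPKM, 1.62 and 2.35 RPKM, and 0 and 0.0295 RPKM in these 3 groups. Lgals3 stood at 3.32 and 2.56 RPKM, 67.9 and 144 RPKM, and 2.93 and 13.5 RPKM. Both TG Aire-/- livers were above the other 4 for each of these 3 genes. Il10 had the same order, at 0.0357 and 0.226 RPKM, 1.52 and 2.69 RPKM, and 0.207 and 0.349 RPKM. Hp did not, at 4182 and 3174 RPKM, 2545 and 1345 RPKM, and 1611 and 6689 RPKM, and neither did Gm20219, 1600020E01Rik and Gnrh1. Isg15, low in the sorted TG Aire-/- cells, stood at 9.75 and 7.04 RPKM, 75.2 and 22.5 RPKM, and 3.45 and 7.42 RPKM.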

How the data were processed

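Gene expression in sorted liver CD8+ T cells (3 groups of 1 library) and in 6 livers (3 groups of 2) was read from 2 tables of RPKM values deposited by the authors. The submitters' processing notes list STAR 2.5.2b and mm10; for the counting tool, annotation and strand setting, they were not given in the sources used here. Groups came from the sample titles. Differences of log2(RPKM + 1) were computed without further scaling over genes at 5 RPKM or more in 1 of the 2 libraries. The members and the 44 gene lists were chosen with earlier results of these data known. Text names the 10 largest differences each way, check genes, up to 4 members past 1 of each list, for 5 lists also up to 4 by level, and the 5 highest myeloid genes; a gene outside this rule is said to be so. Overlap was taken between gene bodies on either strand, not between exons. Named genes that overlap another gene in this way (among them Tox, Cd160, Junb, Ppp1r15a, Tgtp1, Cxcr5, Anxa1 and S100a4) may share reads with it, which was not examined. Gene positions and lengths came from GENCODE vM21, matched by symbol for 24255 genes, and promoter windows from RefSeq starts. Depth was inferred from steps between low values of 3562 single-transcript genes: 54.7% to 56.0% of them in these 2 libraries were whole within 0.1 read, where chance gives 20%, too loose to recover counts. Alternatives were pseudocounts of 0.1 and 5, 2 scalings, 3 filters, 2 ways of setting genes aside and, chosen after seeing the data, centring on length or GC content. The difference and list steps were tested on simulated data (Python 3.11.15, pandas 2.3.3). Some list members named by this rule are not reported here. The thymus table and 4 livers without a batch number were not used here.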

Additional observations from a re-analysis of the deposited data

How the results depend on the processing

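With a pseudocount of 5 RPKM, 253 genes were higher and 349 lower by at least 1, against 552 and 632, because a larger pseudocount shrinks every difference. Less the median of genes of like transcript length, 324 were higher, 263 of them shared with the 552, and 630 lower, 492 of them shared with the 632; the cause was not tested. Under the other alternatives both counts stayed within 1.5 times. The median of the CD4 and regulatory T cell list was -0.20 with a minimum of 1 RPKM. That of the class II list was -1.13 with genes set aside by the CD8-depleted livers as well (969 more genes). That of the erythroid list was 0.027 with no filter. Each had the opposite sign to its value in the main analysis and came from another set of genes. The erythroid median was -0.27 in the main analysis and ran from -0.53 to -0.06 under the other alternatives that kept such genes. Other medians given in the text moved by over 1.5 times as follows. With no filter they were 0.27 for CD4 and regulatory T cell genes, 0.24 for class II, 2.28 for neutrophil, -0.60 for amino acid and endoplasmic reticulum stress, 0.0 for chemokine, -0.12 for killing and -0.64 for residency genes. A minimum of 1 RPKM gave 2.43 for neutrophil genes, and one of 10 RPKM gave -0.48 for TGF-β, -0.72 for cholesterol and fatty acid and -0.25 for cytokine genes. Setting genes aside by liver gave -0.19 for cholesterol and fatty acid genes. A pseudocount of 5 gave -0.67 for NK receptor, 0.78 for class II, 2.09 for neutrophil and -0.63 for residency genes. Scaling to the same sum gave -0.38 for TGF-β, -0.27 for class I, -0.29 for cytokine, -0.44 for killing and -0.45 for pan-T genes, and the median scaling gave -0.23 for class I and -0.24 for cytokine genes. Centring by transcript length gave 0.84 for class II and -0.53 for erythroid genes, and its other values stand beside the medians. Centring by GC content gave -0.25 for class I and -0.24 for cytokine genes. The survival and apoptosis median, near 0, ran from -0.42 to 0.06, and the glycolysis median from -0.14 to 0.10. The 122 named genes past 1 kept their sign under every alternative that kept them, and 103 to 122 stayed past 1, except that the minimum of 10 RPKM and the setting aside by liver kept 110, all past 1. No paired analysis was possible because each CD8+ T group had 1 library. Depth limits low genes, and 1 library a group limits all values.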

Other observations

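Small nucleolar RNA host genes, which carry these RNAs in their introns and were looked up after some had been seen among the large differences, did not move as a group. Snhg3 stood at 27.0 RPKM in TG Aire+/-, 115 RPKM in TG Aire-/- and 17.1 RPKM in Aire-/- (a difference of 2.05), Snhg20 at 4.35, 22 and 4.47 RPKM (2.10), Snhg4 at 3.94, 25 and 3.05 RPKM (2.40) and Snhg10 at 0.297, 5.42 and 0.459 RPKM (2.31). In all 4 the TG Aire-/- library stood alone at the top. Snhg1 was lower, at 141, 60.1 and 112 RPKM (-1.22), and so was Snhg12, at 108, 52.8 and 58.9 RPKM (-1.02). Gas5, another such host gene, differed by -0.76. The gene body of Snhg3 overlaps that of Rcc1, and reads in bases that both cover cannot be told apart where strand is not known.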
